A study of Gallus gallus with 6 samples.

Results

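Coagulation and complement are the plasma protein systems that stop bleeding and attack microbes, and the liver secretes most of their proteins into the blood. The genes described here were chosen by name: 49 names of clotting, fibrinolytic and complement components, of which 43 stand in the deposited table. They occupy 44 of its 14078 gene rows, because C4BPA is listed on 2 rows. The 23 coagulation names gave 22 rows, with no row named KLKB1. The 26 complement names also gave 22 rows, with none named C1QC, C3, C9, CFB or CLU. RNA was sequenced from the liver of 3 juvenile hens slaughtered at 20 weeks (L20) and of 3 hens in lay at 30 weeks (L30), all females of 1 strain of the Chinese Lushi breed, a green shell layer, kept in cages in a shared environment with feed at will. Each hen gave 1 library. Age and laying stage change together in this design and cannot be told apart.

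In the clotting cascade, inactive proteases (zymogens) from the liver are cut into active enzymes one after another, with cofactors that hold enzyme and substrate together. The last enzyme, thrombin, turns fibrinogen into fibrin, factor XIII cross-links it, and plasmin dissolves it again. In complement, recognition proteins such as C1q and the mannose-binding lectin switch on proteases that cleave C4 and C3. Cleavage of C5 then starts the assembly of the terminal components into a pore in the target membrane, and regulators restrain each stage. Hepatocytes make most of these proteins, whereas C1q comes mainly from macrophages. The roles given below are those known from mammals.

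The level of each gene is given as FPKM, fragments scaled by exon length and library, and values in 3s stand in the order of hens 1, 2 and 3. Groups were compared with limma on log2(FPKM + 1) across the 9732 genes whose mean FPKM reached 1. The added 1 makes each log2 fold change (L30 over L20) of a weakly expressed gene smaller than its change in FPKM. A gene is said to have fallen or risen where its Benjamini-Hochberg adjusted p was 0.05 or less. A DE gene is one with an unadjusted p of 0.05 or less. The recovered reads on genes numbered 13764705 to 21570330 per hen, and F3 and TFPI, with 0 to 21 reads each in a hen, did not reach the level needed for the test. That left 42 rows, 20 of coagulation and 22 of complement. The yolk genes were read from the rows named APOVLDLII, VTG2 and TPRXL, the last of which was taken as VTG1. Together they took 0.0141% ± 0.0125 of the reads in L20 and 15.6% ± 1.32 in L30 (SD, n = 3), which matches the labelled stages. Bulk liver RNA cannot tell apart fewer cells of a type and less RNA per cell, and this holds for every gene below.

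Over the listed rows, laying hens had lower complement RNA than juvenile hens, and most clotting zymogens and inhibitors on the list had intervals around no change. All 6 clotting rows tested as cofactors, starters or adhesion proteins had a log2 fold change below 0 (median −0.47), against 54.7% of all genes. F13A1 (−2.75) and SERPINF2 (−1.88), both of coagulation, had the lowest log2 fold changes of all 42 rows tested. The median log2 fold change was −0.66 over the 22 complement rows and −0.19 over the 20 coagulation rows, against −0.04 over all genes tested. Of the complement rows, 15 (68.2%) were DE genes with lower FPKM in L30, of the coagulation rows 5 (25%), and of all genes tested 11.7%. No row of either list was a DE gene with higher FPKM in L30, where the share of all genes was 11%, and DE genes of both directions made up 22.7%. The log2 fold change was below 0 in 35 of the 42 rows and in 54.7% of all genes. Factor X (F10), C1QA, C8A and the more abundant C4BPA row fell, 4 of 42 rows, and no row rose. Of all genes 1.21% fell and 2.19% rose, 3.4% together. All 4 also met the SDE rule, which adds a mean FPKM ratio of 2 or more, or of 0.5 or less. It was met by 0.935% of all genes in this direction and by 2.75% in either. The difference between the coagulation and the complement list was not tested. Further genes of both systems, given below, had their medians in the reverse order, so the contrast holds for the listed rows only.

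**Figure D1:**
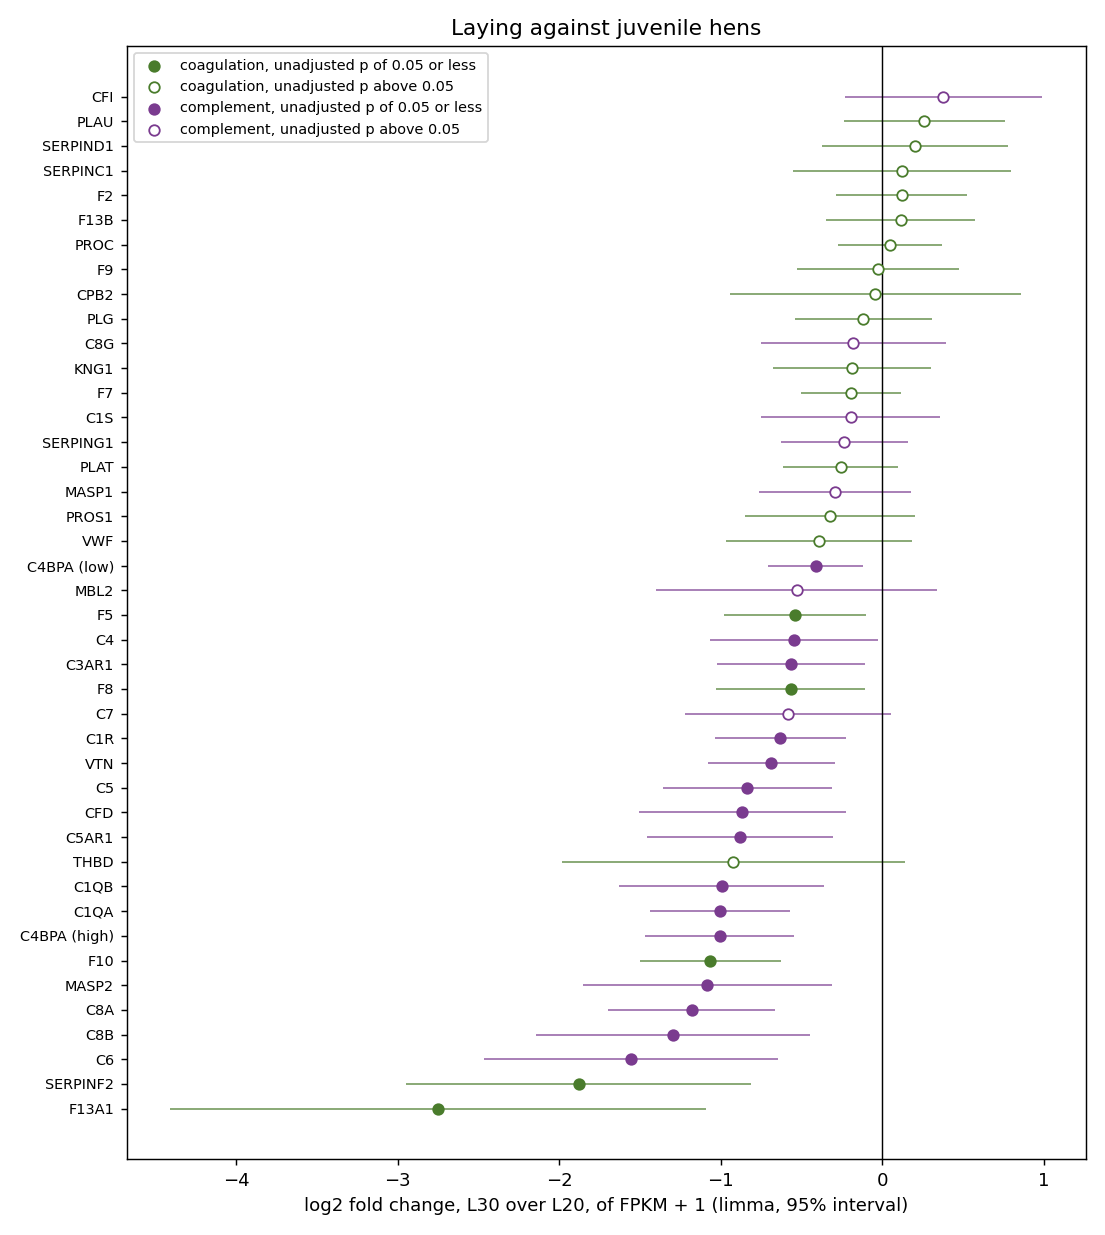
Log2 fold change (L30 over L20, of FPKM + 1) of each of the 42 rows tested, ordered by size, with its 95% interval from limma. Green marks coagulation and purple complement, and filled points are DE genes. Only 7 rows lie above 0, and the 20 filled points all lie below it.

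Summed FPKM of the complement rows was 6245, 7025 and 7086 in L20 and 3938, 4179 and 4675 in L30, so every laying hen lay below every juvenile hen. The means were 6785 ± 469 and 4264 ± 376 (SD, n = 3), a ratio of 0.628. Summed FPKM of the coagulation rows was 3489, 3565 and 3899 in L20 and 2889, 3511 and 3116 in L30, and the groups overlapped, with a ratio of 0.869. Fibrinogen is not on this list, and its 3 genes alone had a mean sum of 31869 FPKM in L20 and 12505 in L30, a ratio of 0.392. The contrast between the coagulation and the complement sum therefore holds for the listed rows only. The exact permutation test on 3 hens against 3 cannot give a p below 0.1, and no p is given for these sums. Vitronectin (VTN) is the most abundant row of all, and without it the complement sum was 4001 ± 316 in L20 and 2532 ± 361 in L30 (SD, n = 3). Without SERPINF2 and F10, a pair chosen after the values were seen, the coagulation sum was 3056 ± 276 and 2978 ± 309 (SD, n = 3). Both genes had lower FPKM in L30, so leaving them out had to bring the sums closer. This sum is no measure of the contrast with complement.

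As a share of the reads on genes, the complement rows took 1.79% ± 0.0643 in L20 and 0.928% ± 0.14 in L30, and the coagulation rows 1.46% ± 0.123 and 1.05% ± 0.0363 (SD, n = 3). Both groups of shares were lower in every laying hen. The ratios were 0.518 and 0.719, below those of the FPKM sums, and the reads of the yolk genes are part of this total. The deposited FPKM carry a library factor other than the total of reads on genes, and relative to that total FPKM were 0.25 higher in L30 than in L20 on the log2 scale. With edgeR on the recovered reads and no TMM scaling, which uses that total, the median log2 fold change of all genes was −0.31, that of coagulation −0.44 and that of complement −0.89. In that fit 18 of 22 complement and 9 of 21 coagulation rows were DE genes with lower levels in L30, against 26% of all genes, and 41 of 43 rows had a log2 fold change below 0. The values below are relative to the FPKM scaling.

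**Figure D2:**
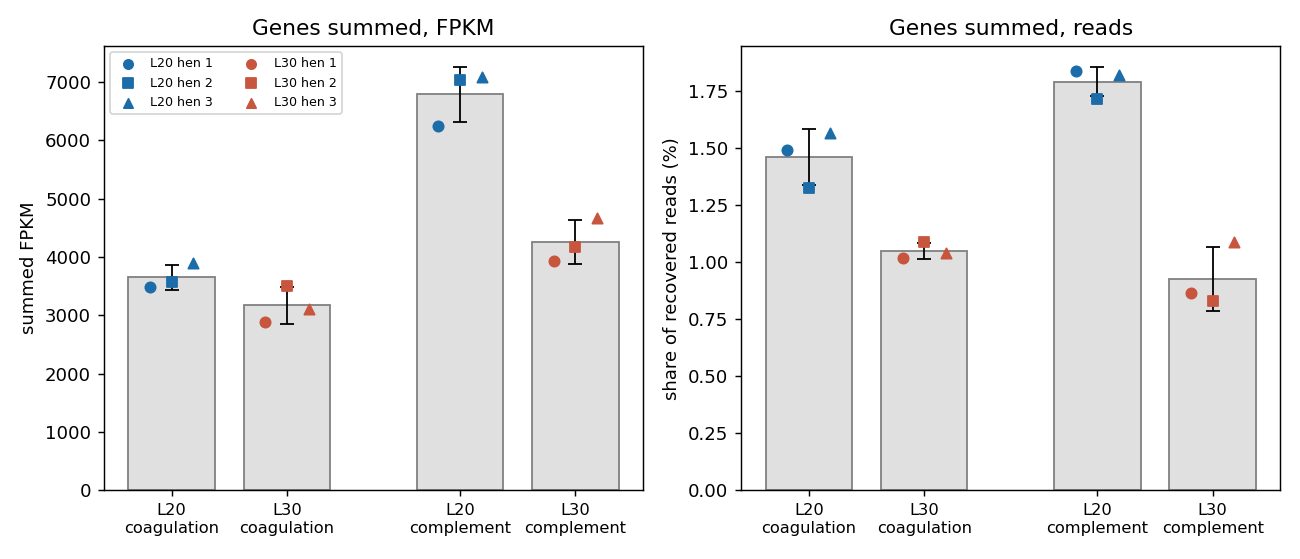
Summed FPKM (left) and share of the recovered reads in percent (right) of the 22 coagulation and the 22 complement rows. Points are hens, bars are means and whiskers 1 SD, with 3 hens per group. Complement sums do not overlap between L20 (6245 to 7086 FPKM) and L30 (3938 to 4675 FPKM), whereas the coagulation sums in FPKM do.

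Levels ranged over several orders of magnitude. VTN had a mean FPKM of 2258 over the 6 hens and ranked 38 among all genes, and TFPI had 0.169. In all, 14 complement rows and 10 coagulation rows had a mean FPKM of at least 100. The 5 most abundant coagulation genes were PLG, KNG1, F2, SERPIND1 and SERPINC1, and the 5 most abundant complement rows were VTN, the abundant C4BPA row, SERPING1, C1S and CFD. The hepatocyte marker ALB had FPKM from 4260 to 16991 in the 6 hens, in keeping with the labelled tissue.

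**Figure D3:**
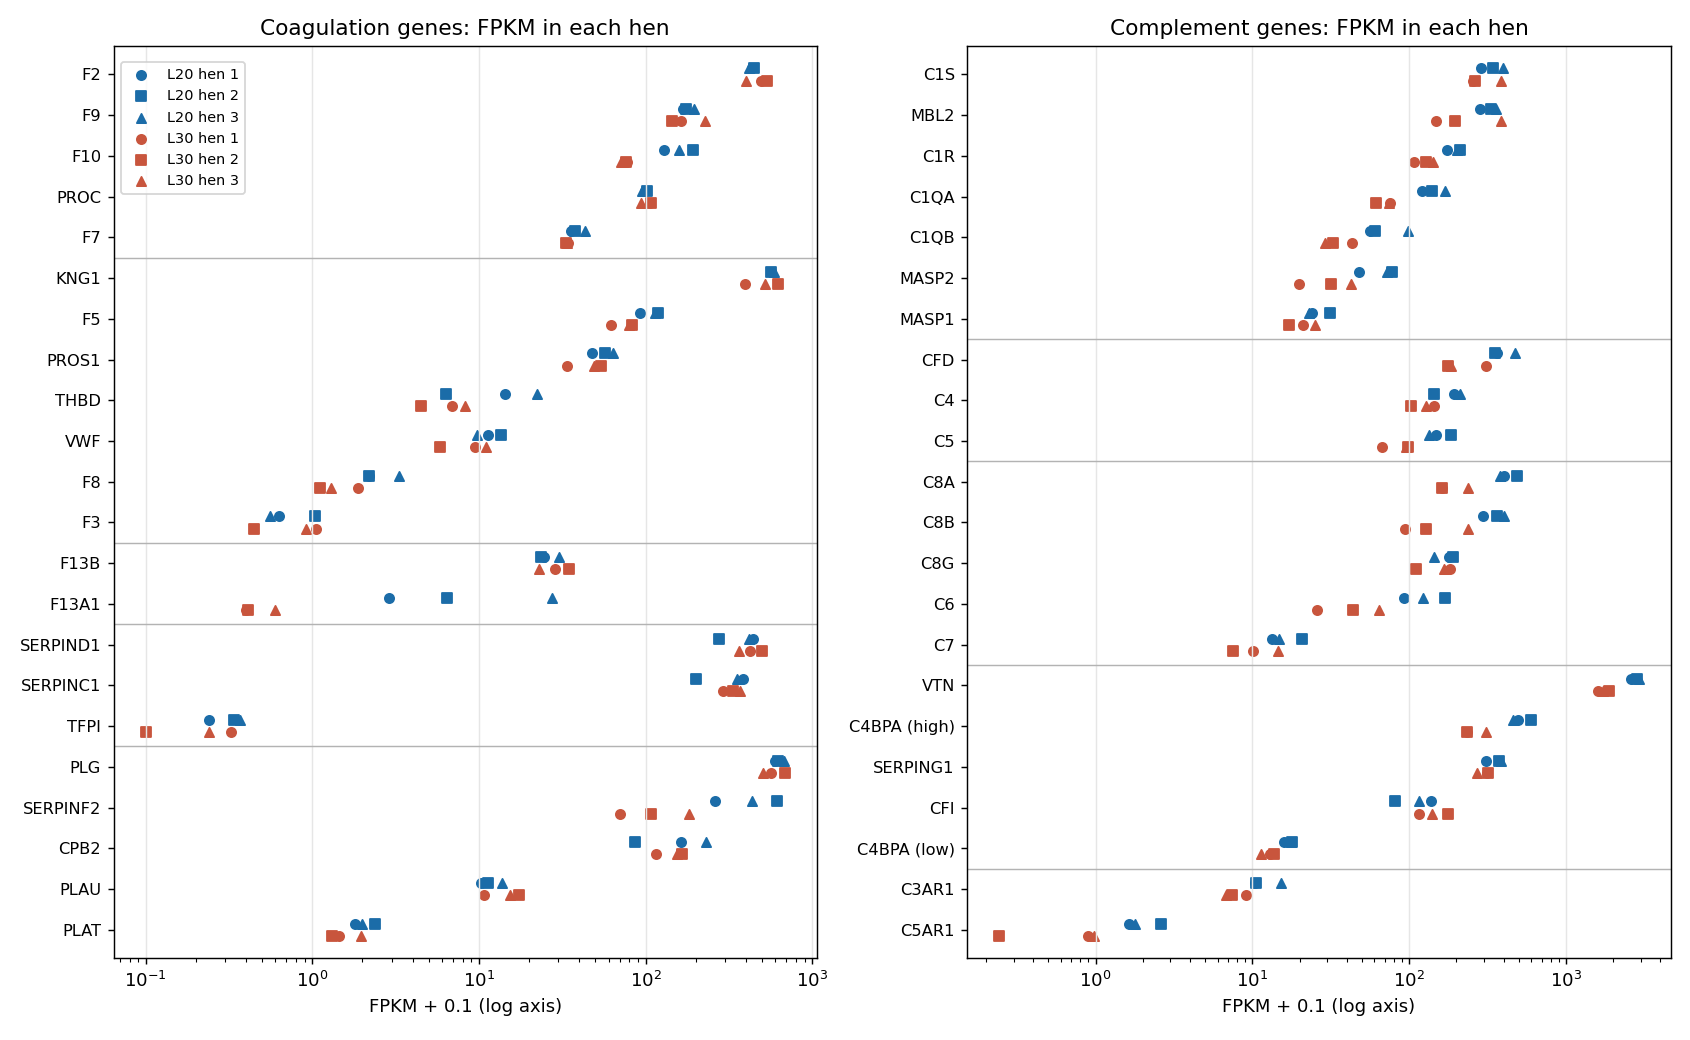
FPKM of each row in each hen, with 0.1 added so that a value of 0 can stand on the log axis, for coagulation (left) and complement (right). Blue marks L20 and red L30, and marker shapes are hens 1, 2 and 3. Lines separate the roles, from the top zymogens, cofactors, factor XIII, inhibitors and fibrinolysis on the left, and recognition, core, terminal pathway, regulators and receptors on the right. VTN is the highest row, at 1593 to 2898 FPKM, and TFPI the lowest.

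Among the clotting zymogens 1 of 5 fell, as did 1.21% of all genes, which does not show that the others were unchanged. F10, the precursor of the protease that cuts prothrombin, had FPKM of 128, 191 and 158 in L20 and 77.1, 76.3 and 71 in L30 (galGal4 chromosome 1, 136922629 to 136935187). The groups did not overlap, and the laying hens lay close together. F10 fell by 1.06 on the log2 scale (SE 0.18, limma adjusted p = 0.0411). The call held without L20 hen 1 (limma adjusted p = 0.0445) and was lost without any other hen, with an adjusted p of up to 0.15. F7, which starts clotting together with tissue factor, lies next to F10 with 2863 bp and no listed gene between them. Its FPKM was 35.5, 37.7 and 43.3 in L20 and 34.3, 33.3 and 33.5 in L30. These groups did not overlap either, but the difference was small, with a log2 fold change of −0.19 (SE 0.13, limma adjusted p = 0.414), and F7 was no DE gene. The ratio of F10 to F7 FPKM was 3.61, 5.08 and 3.66 in L20 and 2.25, 2.29 and 2.12 in L30, lower in every laying hen. As F10 fell and F7 was no DE gene, this ratio largely repeats the change of F10.

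The other zymogens overlapped between the groups. Prothrombin (F2) had FPKM of 435, 449 and 419 in L20 and 490, 535 and 400 in L30, a log2 fold change of 0.12 with a 95% interval from −0.29 to 0.53. The table gives F2 the same span as its neighbour CKAP5, so the start and end are not those of F2 alone. Factor IX (F9), which activates F10 with its cofactor factor VIII, had means of 179 ± 13.7 and 179 ± 44.5 FPKM (SD, n = 3) and a log2 fold change of −0.03 (−0.53 to 0.48). Protein C (PROC), the anticoagulant protease, had 98.7 ± 3.72 and 102 ± 7.72 FPKM (SD, n = 3) and 0.05 (−0.27 to 0.37). The intervals of F2, F9 and PROC each leave out a fall as large as the −1.06 estimated for F10.

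Factors V and VIII are the cofactors that speed the cleavage of prothrombin and of factor X. F5 had FPKM of 92.2, 119 and 114 in L20 and 61.5, 82.7 and 79.2 in L30, without overlap (chromosome 1, 83010007 to 83046065). Its log2 fold change was −0.54 (SE 0.18, limma adjusted p = 0.155), so F5 was a DE gene that did not pass the adjustment. F8 had FPKM of 2.09, 2.07 and 3.23 in L20 and 1.79, 1.01 and 1.2 in L30 (chromosome 4, 2122994 to 2142344). Every laying hen was below every juvenile hen, with a log2 fold change of −0.57 (SE 0.19, limma adjusted p = 0.155). F8 is made mainly by sinusoidal endothelial cells.

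The remaining cofactors and cell-bound proteins did not pass as DE genes. Kininogen (KNG1), the cofactor of the contact system and source of bradykinin, had FPKM of 570, 566 and 592 in L20 and 397, 621 and 521 in L30. Its juvenile hens lay within a narrow range and the laying hens on both sides of it, with a log2 fold change of −0.19 (SE 0.20, limma adjusted p = 0.616). PROS1, the cofactor of protein C, had means of 56.3 ± 8.06 and 45.3 ± 10.4 FPKM (SD, n = 3) and a log2 fold change of −0.32 (−0.85 to 0.20). Thrombomodulin (THBD), the endothelial receptor that turns thrombin towards protein C, spread from 6.24 to 22.3 FPKM in L20 and from 4.38 to 8.12 in L30. The von Willebrand factor (VWF), which tethers thrombocytes, had means of 11.4 ± 1.87 and 8.68 ± 2.65 FPKM (SD, n = 3). The intervals of both include 0, from −1.98 to 0.14 for THBD and from −0.97 to 0.18 for VWF. Tissue factor (F3) lay between 0.344 and 0.954 FPKM in the 6 hens, on 4 to 21 reads, and was not tested.

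Factor XIII has a catalytic subunit (F13A1) and a carrier subunit (F13B), and of these F13A1 was a DE gene and F13B was not. F13A1 had FPKM of 2.78, 6.31 and 27.2 in L20 and 0.301, 0.314 and 0.501 in L30 (chromosome 2, 65105831 to 65167267). All laying hens were far below all juvenile hens, on 25 to 44 reads against 273 to 3089. The mean was 32.6-fold higher in L20, and 12.2-fold without L20 hen 3, which was far above the other juvenile hens. The log2 fold change was −2.75 (SE 0.69) with a limma adjusted p of 0.0825, from 0.0549 to 0.214 over the fits with a hen left out. On the recovered reads F13A1 passed with edgeR (TMM, adjusted p = 0.0387) and with DESeq2 (adjusted p = 3.96e-09). In these fits 4 and 13 rows passed, beside 4.87% and 9.94% of all genes. F13B, a liver product, had FPKM of 26.1 ± 3.53 and 28.6 ± 5.95 (SD, n = 3) and a log2 fold change of 0.12 (−0.34 to 0.58). F13A1 is made by macrophages and by the platelet lineage.

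Neither of the 2 inhibitors tested was a DE gene. Antithrombin (SERPINC1), the main inhibitor of thrombin and factor Xa, had FPKM of 386, 201 and 354 in L20 and 291, 333 and 368 in L30. Heparin cofactor II (SERPIND1), another thrombin inhibitor, had 441, 277 and 416 in L20 and 423, 502 and 365 in L30, in a span the table shares with PI4KA. L20 hen 2 was the lowest hen for both, and the log2 fold changes of 0.12 (−0.55 to 0.80) and 0.20 (−0.37 to 0.78) became −0.17 and −0.0068 without it. With edgeR and no TMM scaling they were −0.18 and −0.10, and those of F2, F13B and PROC were −0.13, −0.15 and −0.20. The tissue factor pathway inhibitor (TFPI) rested on 0 to 11 reads, at 0.14, 0.24 and 0.268 FPKM in L20 and 0.224, 0 and 0.14 in L30.

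In fibrinolysis plasminogen overlapped between the groups and the inhibitor of plasmin did not. Plasminogen (PLG), the zymogen of plasmin, had FPKM of 594, 625 and 678 in L20 and 567, 685 and 510 in L30, with a log2 fold change of −0.12 (SE 0.18, limma adjusted p = 0.73). SERPINF2, the antiplasmin that inactivates plasmin, had 259, 614 and 434 in L20 and 69.9, 107 and 181 in L30 (chromosome 19, 5394484 to 5400909). The highest laying hen lay below the lowest juvenile hen, and the hens of each group spread widely. The mean was 3.65-fold higher in L20, with a log2 fold change of −1.88 (SE 0.44, limma adjusted p = 0.0762), so SERPINF2 was a DE gene that did not pass the adjustment. Over the fits with a hen left out its limma adjusted p ran from 0.0503 to 0.212. The ratio of SERPINF2 to PLG FPKM was 0.436, 0.983 and 0.641 in L20 and 0.123, 0.156 and 0.356 in L30. The activators were low in all hens. Urokinase (PLAU) had 11.7 ± 1.77 and 14.4 ± 3.44 FPKM and the tissue activator (PLAT) 1.95 ± 0.295 and 1.48 ± 0.341 (SD, n = 3). Without L30 hen 1 PLAU was a DE gene with higher FPKM in L30. CPB2, which trims fibrin so that plasminogen binds less, ranged from 85.9 to 230 FPKM in L20 and from 115 to 166 in L30.

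Complement recognition and its initiating proteases were lower in L30 in 7 of 7 rows by log2 fold change, against 54.7% of all genes. Of these rows 4 were DE genes, against 11.7% of all genes in this direction. C1QA and C1QB encode chains of C1q, the molecule that recognises antibody-coated targets. C1QA had FPKM of 120, 139 and 169 in L20 and 75.5, 61.7 and 74 in L30 (chromosome 21, 6064484 to 6066427). The groups were well apart, and C1QA fell by 1.00 on the log2 scale (SE 0.18, limma adjusted p = 0.0443). The call was lost without any 1 of the 6 hens, with adjusted p from 0.0558 to 0.152. C1QB, 1397 bp away with no listed gene between, had 56.3, 60.2 and 98.1 in L20 and 43, 32.4 and 29 in L30, also without overlap. Its log2 fold change was −0.99 (SE 0.26, limma adjusted p = 0.0925). The ratio of C1QA to C1QB FPKM ranged from 1.72 to 2.32 in L20 and from 1.76 to 2.55 in L30, so the neighbours kept overlapping ratios.

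C1R and C1S are the proteases bound to C1q, and their genes lie 3852 bp apart with no listed gene between. C1R had FPKM of 173, 209 and 201 in L20 and 108, 127 and 142 in L30 (chromosome 1, 76872312 to 76879240). Every laying hen was lower, with a log2 fold change of −0.63 (SE 0.17, limma adjusted p = 0.0937). C1S had 285, 342 and 398 in L20 and 254, 263 and 386 in L30, where L30 hen 3 lay among the juvenile hens, and a log2 fold change of −0.20 (SE 0.23, limma adjusted p = 0.651). The ratio of C1R to C1S FPKM was 0.607, 0.612 and 0.506 in L20 and 0.425, 0.483 and 0.368 in L30.

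In the lectin pathway MASP2 was a DE gene and MASP1 and MBL2 were not. MASP2, the protease that cleaves C4, had FPKM of 48.1, 77.3 and 71.5 in L20 and 19.6, 31.7 and 42.5 in L30 (chromosome 21, 4073316 to 4086699). The groups did not overlap, with a log2 fold change of −1.08 (SE 0.32, limma adjusted p = 0.116). MASP1, which activates MASP2, had 25.8 ± 4.53 and 21 ± 4.07 FPKM (SD, n = 3) and −0.29 (−0.76 to 0.18). The mannose-binding lectin (MBL2) had 283, 332 and 356 in L20 and 148, 194 and 386 in L30. L30 hen 3 had the highest MBL2 of all 6 hens, and the ratio of the L20 to the L30 mean was 1.33 with it and 1.89 without it.

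All 3 rows found for the core and the alternative pathway were DE genes with lower FPKM in L30, as were 11.7% of all genes. The listed names C3 and CFB had no row. C5, whose cleavage starts the terminal pathway, had FPKM of 148, 186 and 133 in L20 and 67.3, 98.4 and 95.4 in L30 (chromosome 17, 8319162 to 8342836). Its log2 fold change was −0.83 (SE 0.22, limma adjusted p = 0.0888), without overlap. Factor D (CFD), the protease that cleaves factor B, had 364, 354 and 471 in L20 and 309, 176 and 184 in L30. CFD did not overlap either, at −0.87 (SE 0.27, limma adjusted p = 0.127). C4, the substrate of C1s and MASP2, had 193, 143.1 and 212 in L20 and 143.5, 102 and 127 in L30, at −0.54 (SE 0.22, limma adjusted p = 0.205). Here L20 hen 2 and L30 hen 1 had nearly equal FPKM and the groups just overlapped.

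C3, the protein on which all complement pathways meet, has no row of that name. A row named C3D is described in the table as the C3 precursor (ENSGALG00000011509, on an unplaced scaffold), and it was added after the values were seen and enters none of the counts. It had FPKM of 2074, 2520 and 2448 in L20 and 1097, 1352 and 1543 in L30, without overlap, and ranked 45 among all genes by mean FPKM. Its log2 fold change was −0.83 (SE 0.20, limma adjusted p = 0.077).

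Of the terminal components, C8A, C8B and C6 were DE genes with lower FPKM in L30, as were 11.7% of all genes, and C7 and C8G were not. C8A had FPKM of 400, 484 and 378 in L20 and 162, 162 and 238 in L30 (chromosome 8, 24711327 to 24727316), and fell by 1.18 on the log2 scale (SE 0.21, limma adjusted p = 0.0456). The call held without L30 hen 3 (limma adjusted p = 0.0269) and was lost without any other hen, with an adjusted p of up to 0.148. C8B, its neighbour at 4464 bp, had 295, 360 and 403 in L20 and 93.9, 128 and 237 in L30, without overlap, at −1.30 (SE 0.35, limma adjusted p = 0.0988). Without L30 hen 3 C8B passed too (limma adjusted p = 0.0275), and without any other hen it did not, with an adjusted p of up to 0.271. It also passed with DESeq2 (adjusted p = 0.0161). In all 13 rows passed there, beside 9.94% of all genes. C1QB, C1R, C5, C6, MASP2, SERPINF2 and VTN were also among those that passed there but not with limma. L30 hen 3 was the highest laying hen for both C8A and C8B.

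C8G encodes the third chain of C8 and lies on another chromosome, in a span the table shares with FBXW5. It had FPKM of 178, 190 and 143 in L20 and 182, 110 and 166 in L30, and the groups overlapped, at −0.18 (−0.75 to 0.39). The FPKM ratio of C8A to C8G was 2.24, 2.55 and 2.64 in L20 and 0.888, 1.47 and 1.44 in L30. That of C8B to C8G was 1.65, 1.9 and 2.82 in L20 and 0.516, 1.16 and 1.43 in L30. Both ratios were lower in every laying hen than in any juvenile hen. C8A and C8B were DE genes and C8G was not, so these ratios largely repeat the changes of C8A and C8B. The ratio of C8A to C8B overlapped, from 0.938 to 1.36 in L20 and from 1.00 to 1.72 in L30.

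C6 had FPKM of 92.2, 170 and 123 in L20 and 25.8, 43.5 and 64.4 in L30 (chromosome Z, 12824878 to 12849014). Every laying hen was lower, and the log2 fold change of −1.55 (SE 0.38, limma adjusted p = 0.0781) was the lowest of the complement rows. C7, 7392 bp away with no listed gene between, had 13.2, 20.5 and 14.6 in L20 and 9.94, 7.42 and 14.4 in L30, at −0.58 (−1.22 to 0.06). The FPKM ratio of C6 to C7 was 7.01, 8.28 and 8.42 in L20 and 2.59, 5.86 and 4.49 in L30.

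Of the regulators, VTN and both C4BPA rows were DE genes with lower FPKM in L30, as were 11.7% of all genes. Vitronectin binds the nascent terminal complex and keeps it out of membranes. VTN had FPKM of 2609, 2845 and 2898 in L20 and 1593, 1877 and 1727 in L30 (chromosome 19, 5641392 to 5645577). The groups did not overlap, with a log2 fold change of −0.69 (SE 0.16, limma adjusted p = 0.0763). C4BPA, the α chain of the protein that helps factor I cleave C4b, had 491, 596 and 462 in L20 and 232, 233 and 307 in L30 on its abundant row (ENSGALG00000023953, chromosome 26, 2576518 to 2583374). This row fell by 1.00 on the log2 scale (SE 0.19, limma adjusted p = 0.0485). The call held without L30 hen 3 (limma adjusted p = 0.0416) and was lost without any other hen, with an adjusted p of up to 0.15, with median ratio scaling (limma adjusted p = 0.0509) and with edgeR and TMM scaling (adjusted p = 0.0804). The other row (ENSGALG00000001175, chromosome 26, 2627128 to 2639856) had 15.9, 17.8 and 17.4 in L20 and 12.8, 13.6 and 11.3 in L30, at −0.41 (SE 0.12, limma adjusted p = 0.117). The C4BPA rows lie 43753 bp apart with 2 listed genes between them. How reads that match both rows, if any, were assigned is not stated, so the level of each is uncertain.

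Factor I (CFI), the protease that inactivates C3b and C4b, was the only complement row with a log2 fold change above 0. It had FPKM of 138, 81.5 and 115 in L20 and 116, 175 and 140 in L30, which overlapped, at 0.38 (−0.23 to 0.99). The C1 inhibitor (SERPING1), which restrains C1r, C1s and the contact system, had 308, 372 and 384 in L20 and 313, 318 and 272 in L30, in a span the table shares with SMTNL1 and UBE2L6. Its groups overlapped too, at −0.23 (SE 0.16, limma adjusted p = 0.438).

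The receptors for the small fragments of C3 and C5 sit on leukocytes, and both were low. C3AR1 had FPKM of 10.3, 10.4 and 15.2 in L20 and 9.04, 7.31 and 6.72 in L30 (chromosome 1, 66940436 to 66943731), at −0.56 (SE 0.19, limma adjusted p = 0.151). C5AR1 had 1.54, 2.52 and 1.69 in L20 and 0.798, 0.144 and 0.878 in L30, on 16 to 29 reads and 1 to 10 reads, at −0.88 (SE 0.24, limma adjusted p = 0.099). Neither overlapped between the groups.

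Markers of macrophages, which make C1q and carry these receptors, were lower in L30 as well. Of 9 macrophage markers 6 were found, none of them at 0 in a hen, and 5 were DE genes with lower FPKM in L30, of which C1QA and SPI1 fell. C1QA and C1QB also belong to the complement list. Of the 4 other markers, 3 were DE genes with lower FPKM in L30 and SPI1 fell, against 11.7% and 1.21% of all genes. The summed level of the 6 ranged from 430 to 635 FPKM in L20 and from 245 to 306 in L30. Without C1QA and C1QB, the sum of CSF1R, MARCO, SPI1 and TIMD4 was 253, 259 and 368 in L20 and 187, 151 and 170 in L30, 1.73-fold higher in L20. C1QA was 2.03-fold and C1QB 2.06-fold higher in L20 by their means. How far the macrophage markers account for C1QA, C1QB, C3AR1, C5AR1 or F13A1 was not tested. Of 9 endothelial markers 8 were found, also none at 0. CDH5, KDR, STAB1 and STAB2, 4 of the 8, were DE genes with lower FPKM in L30, against 11.7% of all genes. Without VWF, which is on this list, the other 7 summed to 105, 80.9 and 105 FPKM in L20 and 60.1, 43.6 and 72.1 in L30, and with it the ranges were 94.4 to 116 and 49.4 to 83.1. Their part in the values of F8, THBD and VWF was not tested. The 6 thrombocyte markers summed to 5.74 to 6.72 FPKM in L20 and 4.46 to 6.53 in L30, and neither of the 2 tested was a DE gene. Of these 2, ITGB3 had 1.00, 1.48 and 2.61 in L20 and 0.848, 0.957 and 0.659 in L30, without overlap (limma adjusted p = 0.237). TUBB1 overlapped, with a log2 fold change of −0.07. Of the 7 hepatocyte markers 6 were found, and ALB and HNF4A were DE genes with higher and APOA1 and FGB with lower FPKM in L30. Of all genes 11% were DE genes with higher and 11.7% with lower FPKM, and none of these 6 markers passed the adjustment.

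**Figure D4:**
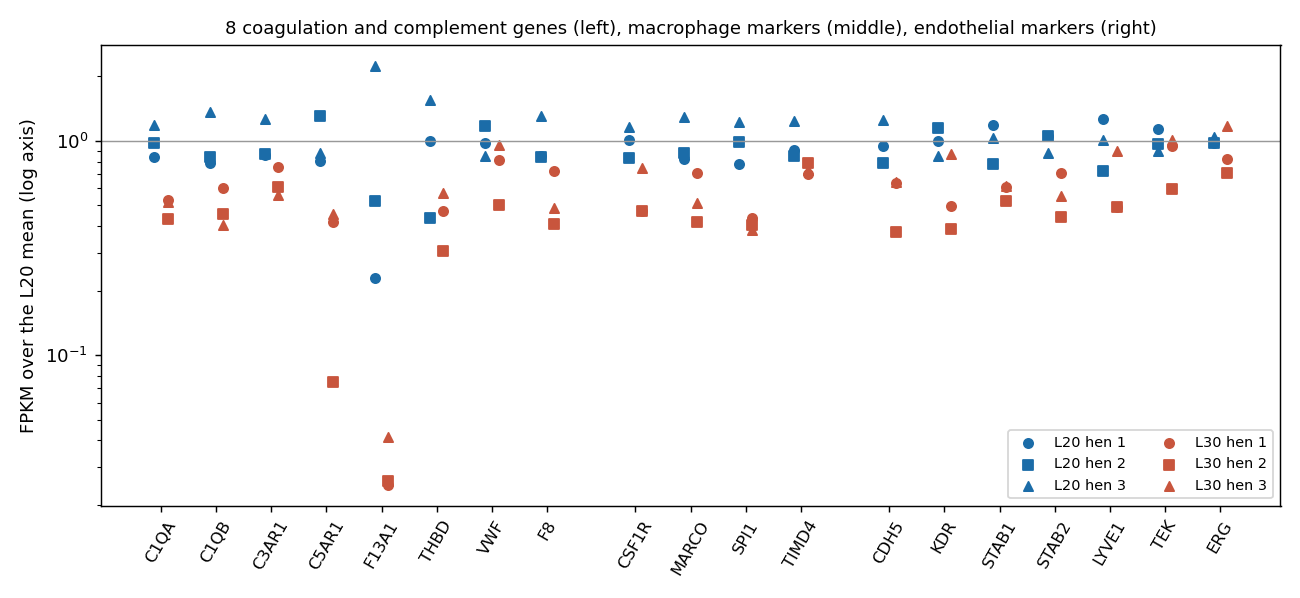
FPKM in each hen divided by the L20 mean of the gene, on a log axis, for 8 of the genes (left), 4 macrophage markers (middle) and 7 endothelial markers (right). Blue marks L20, red L30 and the line a value of 1. F13A1 has the widest gap, and the 4 macrophage markers lie lower in the laying hens, as do C1QA and C1QB.

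Not all 6 hens contributed evenly. Over the 22 complement rows L20 hen 1 was the lowest juvenile hen in 14, and L30 hen 3 the highest laying hen in 11. Leaving out each hen in turn gave 12 to 15 complement and 3 to 5 coagulation DE genes with lower FPKM in L30, with the fewest complement rows without L20 hen 3 or L30 hen 2. In the same fits 7.96% to 11.5% of all genes were such DE genes, with the lowest share without L20 hen 3. The hens of the groups did not overlap, with L30 below, in 14 of 22 complement rows (63.6%) and 6 of 20 coagulation rows (30%), against 16% of all genes tested. In no row did L30 lie wholly above L20, as it did in 14% of all genes, so that 30% of all genes had no overlap either way.

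Other genes of the same systems were read from lists that were drawn up with earlier results of these data known. Of 26 further coagulation genes 20 were found and 18 tested, 7 were DE genes with lower FPKM in L30 and none with higher, where 11.7% and 11% of all genes were. SERPINE2, an inhibitor of thrombin and of plasminogen activators, fell, with FPKM of 7.05, 6.37 and 11.3 in L20 and 2.15, 2.31 and 2.67 in L30 (log2 fold change −1.42, SE 0.21, limma adjusted p = 0.0276). HRG, a plasma protein that binds heparin and plasminogen, had the highest log2 fold change of this list, 0.34 (−0.48 to 1.15). The fibrinogen α chain FGA had the lowest, −1.55 (SE 0.46, limma adjusted p = 0.115), with FPKM of 6725, 10542 and 9035 in L20 and 1686, 2674 and 5606 in L30. The 3 fibrinogen genes FGA, FGB and FGG together reached 31869 ± 7651 FPKM in L20 and 12505 ± 7419 in L30 (SD, n = 3). Their sums ran from 23821 to 39050 in L20 and from 6408 to 20766 in L30, without overlap. L30 hen 3 was again the highest laying hen. FGB and FGG were named after their values were seen.

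Some clotting factors need vitamin K in their maturation, and some a receptor for export from the endoplasmic reticulum. Of 7 genes for these steps 5 were found, and 2 were DE genes with higher FPKM in L30, as were 11% of all genes. LMAN1, the export receptor of factors V and VIII, had FPKM of 64.2, 65.9 and 70.1 in L20 and 89.9, 101 and 113 in L30, without overlap, at 0.59 (SE 0.14, limma adjusted p = 0.079). Its partner MCFD2, named after its values were seen, had 193, 180 and 195 in L20 and 211, 303 and 293 in L30, at 0.49 (SE 0.19, limma adjusted p = 0.195). LMAN1 and MCFD2 lay higher in every laying hen, and F5 and F8, whose proteins they carry, lower. None of them passed the adjustment, and L30 lay wholly above L20 in 14% and wholly below it in 16% of all genes. NQO1 had the lowest log2 fold change of this list, −0.04 (−0.35 to 0.26). Of 25 further complement genes 10 were found, and 4 were DE genes with lower FPKM in L30, as were 11.7% of all genes. CD93, a receptor of endothelial and myeloid cells, had the lowest log2 fold change, −0.99 (−1.61 to −0.37), and C1QBP the highest, 0.25 (−0.12 to 0.61). None of these 10 passed the adjustment. Their median log2 fold change was −0.22, and that of the 18 further coagulation genes tested was −0.36. These medians stand in the reverse order of those of the listed rows, and their difference was not tested either.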

How the data were processed

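Liver RNA of 6 hens, 3 L20 and 3 L30, was sequenced as paired-end libraries, 1 per hen. The authors selected mRNA with oligo-dT beads, cleaned the reads, mapped them to galGal4 with TopHat2 2.0.9 and counted them per gene with HTSeq, and Cufflinks and Cuffdiff gave the values. The submitters' processing notes also name CASAVA 1.8.2. The deposited table holds FPKM per gene and hen, and a deposited scaled count, a signal of reads divided by 1 factor per library. Dividing by the value of 1 read gave whole reads (within 0.05 reads, for values up to 20 reads) for 99.8899% or more of the low values, and 0 to 2 values per library lay below 1 read. The deposited FPKM followed the scaled counts, within 0.04 on the log2 scale across libraries over 6524 genes with many reads, rather than the reads over the library total.

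Groups were compared on log2(FPKM + 1) in limma 3.58.1 under R 4.3.3 with an eBayes trend. Genes whose mean FPKM reached 1 entered, with Benjamini-Hochberg adjustment over all of them. The exact permutation test of a gene on 3 hens against 3 cannot go below 0.1. No source gives a batch. Nor does any source state that shared replicate numbers pair the hens. The deviations of same-numbered hens correlated at 0.02, 0.01 and 0.09, not above 0.1, which cannot exclude a pairing that touches part of the genes. Hens are separate animals. The thresholds for DE and SDE genes follow the study's methods.

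The genes and lists were chosen with earlier results of these data known. Values per hen are given for genes that pass the adjusted p, DE genes, genes whose groups do not overlap, and the 5 most abundant of each system. Those of C7, C8G, CFI, MBL2 and TFPI were added after their values were seen. From the other lists come those that pass the adjusted p and the largest and smallest log2 fold change. Ratios of FPKM between genes were not among the planned comparisons, and none was tested. Where a DE gene was set against a gene that was not, the ratio largely repeats the change of the DE gene. This holds for F10 to F7, SERPINF2 to PLG, C1R to C1S and C6 to C7. On the other marker lists, 3 of the 4 T-cell markers tested were DE genes with lower FPKM in L30 (1 passing the adjustment). For stellate cells it was 2 of 6 tested and for heterophils and monocytes 1 of 3, against 11.7% of all genes. None of the 1 bile duct and 2 red cell markers that reached the level needed was a DE gene. No B-cell marker was tested. Alternatives used edgeR 4.0.16 and DESeq2 1.42.0 on recovered reads, other pseudocounts (0.1, 0.01), filters, scalings, a replicate block and each hen left out. Python 3.11.15 with pandas 2.3.3, scipy 1.17.1 and numpy 2.4.6 was used.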

Additional observations from a re-analysis of the deposited data

How the results depend on the processing

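Against 331 genes that passed the adjustment with limma, there were 201 with no filter on low FPKM, 54 with the replicate block, 545 with edgeR and TMM, 702 with edgeR and no TMM, 1398 with DESeq2, and from 64 to 425 over the fits with a hen left out, lowest without L20 hen 3 and highest without L30 hen 3. Of the 4 coagulation and complement rows that fell, 1 (F10) passed with no filter, beside 1.43% of all genes. The replicate block left 0 of them, beside 0.555% of all genes, and gave 20 DE genes at an unadjusted p of 0.05 or less. Of these 20, 19 were DE genes without the block, and the share of all genes was 19.2%. edgeR and no TMM called 12 of 43 rows, beside 6.27% of all genes, and DESeq2 13 of 44, beside 9.94%. Leaving out a hen gave 0 to 3 rows, beside 0.661% to 4.36% of all genes. No source pairs the hens by replicate number, so whether the block belongs in the fit is unknown. With edgeR and no TMM the medians moved to −0.44 for coagulation and −0.89 for complement. With a hen left out they ranged from −0.23 to −0.11 and from −0.78 to −0.65. DE genes then numbered 15 to 20, beside 16.1% to 23.4% of all genes. Over the 42 rows directions turned for F2 (−0.13), F13B (−0.15), PROC (−0.20), SERPINC1 (−0.18) and SERPIND1 (−0.10) with edgeR and no TMM, for F9 (0.024) and CPB2 (0.0087) with median ratio scaling, and for F9 with edgeR and TMM (0.062) and DESeq2 (0.051). With a hen left out they turned for SERPINC1 (−0.17 to 0.30), SERPIND1 (−0.0068 to 0.33), F9 (−0.22 to 0.12), CPB2 (−0.43 to 0.27), F13B (−0.026 to 0.27) and C8G (−0.32 to 0.039). None of these rows was a DE gene. The cause was not tested. Among all DE genes 48.4% were higher in L30, 58.5% with a mean FPKM of at least 5 and 16.6% with edgeR and no TMM. C5AR1, F3 and TFPI rest on few reads, which limits what depth can show for them.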
